A study of Mus musculus with 14 samples.

Results

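The genes *Six2*, *Six4*, *Eya1*, *Eya2*, *Pax2*, *Pax8*, *Pax9* and *Tbx3* encode developmental regulators that are known from the kidney, the genital ducts and neighbouring organs. These 8 members were taken by name, with no threshold on their signals, and their probe sets (groups of probes that read the same transcript) were found through the platform's table of probe sets and genes. Of the 8 genes, 7 had at least 1 probe set that the table assigns to that gene alone, out of 18194 genes so named on the array, and *Pax2* was not analysed here. The 7 genes were read by 19 probe sets, of which 18 had a signal above 20 on at least 1 array, and every one of the 7 had a probe set above that level.

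The mice, adults and embryos, were C57BL/6 by the study's methods (C57BL on the adult labels), and the labels name no allele or agent. The epithelium of the urogenital sinus (UGE), the embryonic tissue from which the prostate buds, was isolated at embryonic day 16 and not sorted (3 arrays). The proximal ends of the prostatic ducts of adult males of 6 to 8 weeks were digested, and the cells were sorted by their surface antigen Sca-1 into bright Sca-1Hi cells (3 arrays), dim Sca-1Lo cells (4 arrays) and Sca-1Neg cells without it (4 arrays). The study uses UGE and Sca-1Hi as populations rich in fetal and adult stem cells, Sca-1Lo as transit-amplifying cells and Sca-1Neg as the most differentiated cells. The 3 adult groups are gates on 1 antigen and not single cell types, UGE differs from them in age and in isolation as well, and nothing in the labels says how many animals a sample held or that replicates came from separate animals, so that p-values measure the spread between these samples.

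Six-family proteins are homeodomain transcription factors, and Eya proteins are coactivators and phosphatases that have no DNA-binding domain and are brought to DNA by Six-family partners. Dach proteins act with them, mostly as corepressors. Pax proteins are transcription factors with a paired domain, and T-box (Tbx) proteins bind DNA through the domain that names them. In the early kidney Pax2, Pax8, Eya1 and Six-family members work in one network that leads to *Gdnf*, the ligand that draws out the ureteric bud from the Wolffian duct, and T-box genes shape the mesenchyme of limbs, glands and ureter.

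Promoters of *Six4* and *Pax9* are shown because both were called higher in UGE in the results that follow, and that of *Six2* because it was not called. RefSeq (GRCm38.p6) gave promoter windows for 5 of the 8 members, and the 250 bases before the listed start were used. *Six4* lies at chr12:73099609-73114031 and *Pax9* at chr12:56691693-56712824, and the windows shown for them start inside those spans, at the start of 1 listed transcript each. *Six2* lies at chr17:85662736-85688254. Capitals mark the motifs found on either strand.
Six4, chr12:73113246-73113495, minus strand: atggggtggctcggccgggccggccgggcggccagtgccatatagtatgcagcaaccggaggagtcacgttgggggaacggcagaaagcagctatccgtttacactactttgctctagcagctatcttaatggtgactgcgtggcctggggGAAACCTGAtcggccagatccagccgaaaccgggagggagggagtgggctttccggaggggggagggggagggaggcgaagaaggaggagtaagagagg
Pax9, chr12:56695221-56695470, plus strand: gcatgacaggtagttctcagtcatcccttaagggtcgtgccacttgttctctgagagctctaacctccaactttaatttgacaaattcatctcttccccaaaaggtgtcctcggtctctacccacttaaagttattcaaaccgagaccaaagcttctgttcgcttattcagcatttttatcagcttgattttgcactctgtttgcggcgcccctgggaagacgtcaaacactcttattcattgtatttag
Six2, chr17:85688255-85688504, minus strand: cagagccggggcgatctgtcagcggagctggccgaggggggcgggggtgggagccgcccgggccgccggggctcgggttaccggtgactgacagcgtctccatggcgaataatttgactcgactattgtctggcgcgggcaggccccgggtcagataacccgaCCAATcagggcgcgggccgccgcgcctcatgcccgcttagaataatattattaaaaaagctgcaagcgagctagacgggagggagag
The motifs searched were the CCAAT box (CCAAT), the MEF3 element that Six-family proteins bind (TCAGGTTTC), forms of the E2F site (TTTCGCGC and TTTGGCGC), a T-box site (AGGTGTGA) and the TATA box (TATAAA). Each window shown held at most 1 match, so no motifs overlapped. In the *Six4* window the capitals are a MEF3 element on the opposite strand, 99 bases before the start, a motif held by 0.387% of 32851 windows of this length. In the *Six2* window they are a CCAAT box, which 33.8% of the windows hold, and a second *Six4* window that overlaps the first held a CCAAT box 73 bases before its start. The E2F forms are held by 0.256% and 0.417% of the windows, the T-box site by 1.12% and the TATA box by 12.4%. None of the motifs searched was in the *Pax9* window, nor in the 3 windows of *Pax2*, and *Pax8* held a CCAAT box. The GC content was 62.0% for *Six4*, 43.6% for *Pax9* and 64.8% for *Six2*, with a median of 52.4% over all windows.

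The deposited values are linear PLIER signals, and a difference below is one of mean log2 signals, tested with limma over 41031 probe sets. A gene was called higher or lower at an adjusted p (Benjamini-Hochberg over all probe sets) under 0.05 with a log2 difference beyond 0.81 either way (the fold limit of the study's own method), and the probe set of highest mean signal stood for its gene. Array medians lay between 64.3 and 81.01. Signals of a list of epithelial markers (9 genes, among them *Epcam* and *Cdh1*) summed to between 34119 and 49532 on the UGE arrays, and those of the secretory *Pbsn* were at or below 20 on every UGE array. A few arrays stood apart. Sca-1Neg replicate 3 had an epithelial sum of 35403 against 8701 to 14290 on the other Sca-1Neg arrays, and a leukocyte sum (8 genes) of 6223 against 13511 to 42762. UGE replicate 1 had a mesenchymal sum (13 genes) of 21806 against 6780 and 8525, and a nerve and glia sum (5 genes) of 4797 against 377 and 381. Sca-1Neg replicate 4 had a nerve and glia sum of 12677 against 158 to 392. The log2 ratio of the 3′ to the 5′ *Gapdh* control, a sign of RNA quality, was 3.07 to 3.48 in Sca-1Hi and 1.66 to 3.22 on the other arrays, and its part in the differences of Sca-1Hi was not tested.

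*Six4* was higher in UGE than in each adult population. It encodes a homeodomain factor with roles in muscle and kidney. Its main probe set, 1425767_a_at, read 1233, 1751 and 1443 on the UGE arrays, 217, 364 and 367 in Sca-1Hi, 393, 331, 484 and 331 in Sca-1Lo, and 141, 107, 407 and 210.0 in Sca-1Neg. Every UGE array lay above every adult array, and the adult populations overlapped one another.

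*Pax9* followed the same order on its main probe set. It encodes a paired-domain factor best known from the pharyngeal pouches, teeth and palate. The main probe set, 1442229_at, was the brightest of 3, with a linear mean of 57.7 over all arrays, against 34.4 and 26.8. Over the 11 adult arrays the linear means were 32.1, 29.1 and 27.0. The choice was made on mean log2 signals, and on that scale 1442229_at was not the brightest over the adult arrays. This probe set thus stands for *Pax9* only through its UGE signals, so its UGE comparisons are not independent of the choice. It read 100.1, 219 and 136 in UGE, 26.8, 40.5 and 34.8 in Sca-1Hi, 33.0, 25.0, 77.5 and 54.4 in Sca-1Lo, and 4.88, 9.06, 36.0 and 11.2 in Sca-1Neg. The UGE arrays again lay above all adult arrays, 3 of the 4 Sca-1Neg arrays were at or below 20, and Sca-1Neg replicate 3 was the exception.

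**Figure D1:**
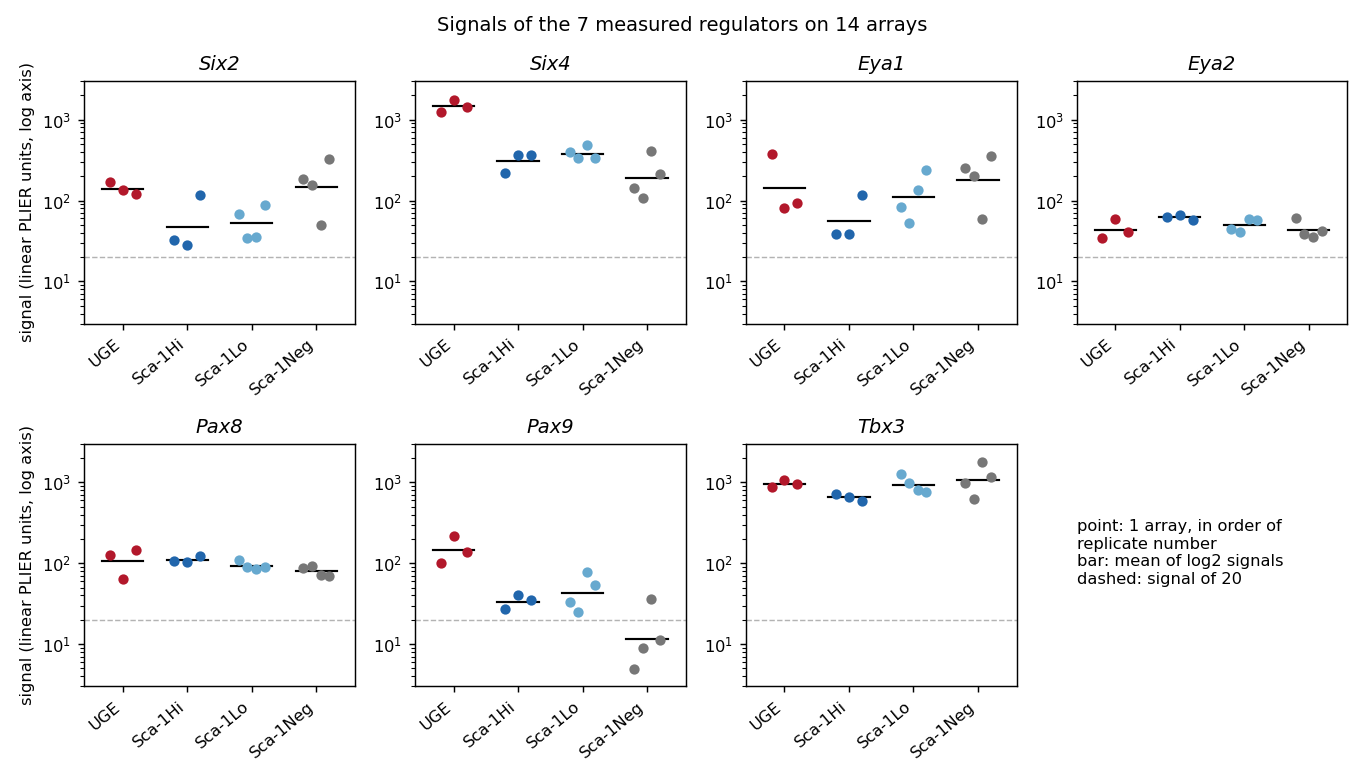
Signals of the 7 measured regulators, each by the probe set that stands for it, on a log axis of linear PLIER units. Points are arrays in the order of their replicate numbers, bars are means of log2 signals and the dashed line is a signal of 20. *Six4* and *Pax9* show 3 UGE points above all 11 adult points, *Six2* and *Eya1* spread widely within the adult groups, and *Eya2*, *Pax8* and *Tbx3* lie close together.

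Against Sca-1Neg, UGE had 2 of the 7 regulators called, both higher, where 29.2% of the 17149 genes tested were called in that comparison (16.3% higher). *Six4* was higher by 2.95 ± 0.39 on the log2 scale (SE, limma adjusted p = 1.06e-04), which is 7.70-fold. *Pax9* was at least 6.21-fold higher with Sca-1Neg signals set to at least 20, and its fitted difference was 3.64 ± 0.57 (SE, adjusted p = 3.97e-04). In bulk RNA, more cells of a type and more RNA per cell cannot be told apart in these values. The other 5 regulators had differences from -0.36 (*Eya1*) to 0.41 (*Pax8*), and the median of the 7 was 0.02, against 0.07 over all genes.

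The comparison of UGE with the adult stem cell population gave the same 2 calls. Against Sca-1Hi, 2 of 7 were called, both higher, at a background of 27.8% of genes called (15.8% higher). *Six4* differed by 2.25 ± 0.42 (SE, adjusted p = 0.00146) and *Pax9* by 2.10 ± 0.60 (SE, adjusted p = 0.0204). Against Sca-1Lo, 2 of 7 were called at a background of 25.6% (13.4% higher), *Six4* by 1.94 ± 0.39 (SE, adjusted p = 0.00272) and *Pax9* by 1.74 ± 0.57 (SE, adjusted p = 0.0405). These 3 comparisons share the UGE arrays, which for *Pax9* also decided the probe set tested. The call of *Six4* held whichever array was left out, and its difference from Sca-1Neg then ran from 2.67 to 3.31. That of *Pax9* held against Sca-1Neg (3.22 to 4.18), but not in the other 2 comparisons: against Sca-1Hi it was lost without UGE replicate 2 (1.80, adjusted p = 0.0823), UGE replicate 3, Sca-1Hi replicate 1 or Sca-1Hi replicate 3, and against Sca-1Lo without any of 7 single arrays, at the most UGE replicate 2 (1.43, adjusted p = 0.163).

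Between UGE and Sca-1Neg, general, urothelial and basal epithelial markers moved in the direction of *Six4* and *Pax9*, but luminal prostate markers moved the other way. The luminal sum (5 genes) was 1594 to 3867 in UGE, 25446 to 39812 in Sca-1Hi, 29596 to 50220 in Sca-1Lo and 23960 to 54743 in Sca-1Neg. In UGE against Sca-1Hi the basal list had a median difference of -0.12, with 1 gene called lower and 0 higher. The epithelial sum was 34119 to 49532 in UGE, 24426 to 31210 in Sca-1Hi, 18821 to 30274 in Sca-1Lo and 8701 to 35403 in Sca-1Neg. The urothelial sum (6 genes) was 7478 to 10649 in UGE and 1304 to 5607 over the adult arrays. The basal epithelial sum (7 genes) was 21998 to 28941 in UGE, 18509.9 to 29117 in Sca-1Hi, 9086 to 28812 in Sca-1Lo and 1803 to 8215 in Sca-1Neg. The part of these cells in the difference was not tested. Within Sca-1Neg, replicate 3 had at once the highest epithelial, basal, urothelial and luminal sums, the highest *Six4* signal and the highest *Pax9* signal. The adult arrays carry sample numbers of the study whose meaning is not stated. With only adult arrays of numbers 1 and 2, the *Six4* difference between UGE and Sca-1Neg was 3.57, and with numbers 3 to 5 it was 2.32, called both times. For *Pax9* these values were 4.44 and 2.84, also called both times.

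Among the adult populations no regulator was called. Against Sca-1Neg, Sca-1Hi had 0 of 7 called at a background of 11.3% of genes, with 4 at an unadjusted p under 0.05 by limma (*Six2*, *Eya1*, *Pax9* and *Tbx3*) and 0 called and 1 unadjusted by the methods' t-test. Sca-1Lo had 0 of 7 at a background of 2.51%, with 3 unadjusted by limma (*Six2*, *Six4* and *Pax9*) and 0 called and 1 unadjusted by the t-test. Sca-1Hi against Sca-1Lo had 0 of 7 at a background of 0.0991%, and 0 unadjusted by either test. The backgrounds are shares of called genes. No share of all genes at an unadjusted p under 0.05 was taken, so the unadjusted counts cannot be read as an excess. *Six4* and *Pax9* had positive values in both gates: *Six4* by 0.70 in Sca-1Hi (95% interval -0.14 to 1.53, adjusted p = 0.258) and 1.004 in Sca-1Lo (0.23 to 1.78, adjusted p = 0.205), *Pax9* by 1.54 (0.32 to 2.75, adjusted p = 0.0918) and 1.90 (0.78 to 3.03, adjusted p = 0.0863). These 4 differences missed the threshold and turned on 1 array. Without Sca-1Neg replicate 3 all of them were called: *Six4* by 1.06 (adjusted p = 0.0370) and 1.37 (adjusted p = 0.0149), *Pax9* by 2.08 (adjusted p = 0.00895) and 2.45 (adjusted p = 0.00514). With *Pax9* in Sca-1Neg set to at least 20, the full set of arrays gave at least 1.45-fold in Sca-1Hi and at least 1.87-fold in Sca-1Lo.

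**Figure D2:**
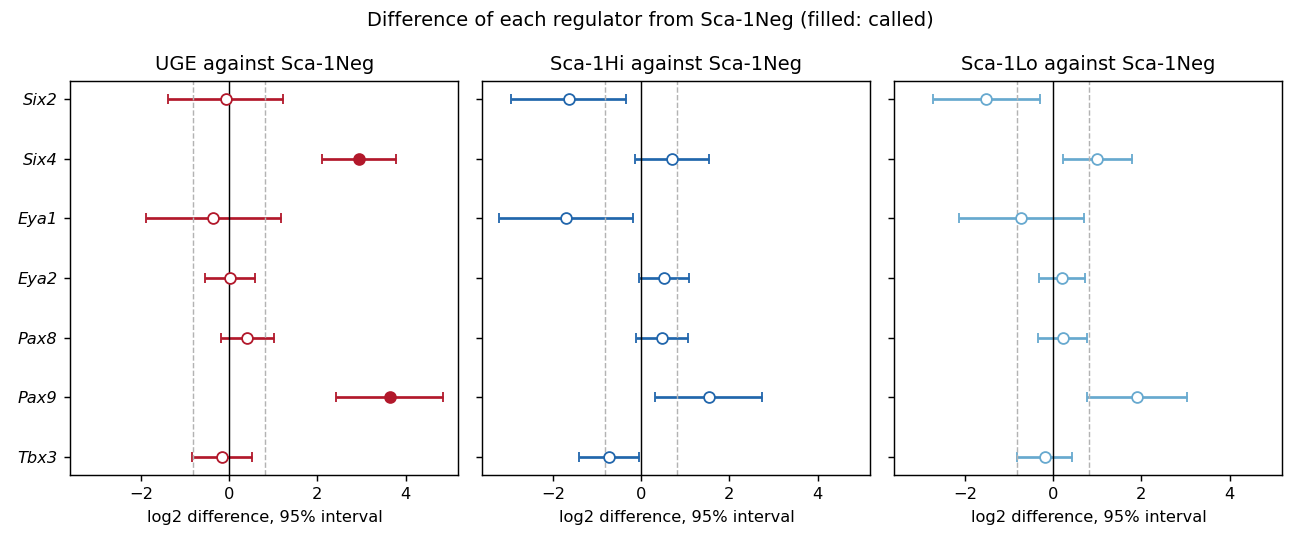
Difference of mean log2 signal from Sca-1Neg for each regulator, with its 95% interval from limma, in UGE, Sca-1Hi and Sca-1Lo. Filled points passed the call, dashed lines mark the fold limit of a call (0.81 on this scale), and the calls are those of *Six4* (2.95) and *Pax9* (3.64) in UGE.

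The other probe sets of *Six4* and *Pax9* did not all repeat their main one. For *Six4*, 1456862_at read 757, 729 and 839 in UGE and 92.8 to 351 on the adult arrays, and 1439753_x_at read 884 to 982 in UGE and 96.2 to 370.4 on the adult arrays. Both were called in the 3 comparisons of UGE, with differences from Sca-1Neg of 2.60 and 2.64 (adjusted p = 5.41e-05 and 1.11e-04), and the suffix x marks probes that can also bind other transcripts. Over all probe sets tested, 25.8% were called in UGE against Sca-1Neg, 25.4% against Sca-1Hi, 21.9% against Sca-1Lo, and 11.9% in Sca-1Hi against Sca-1Neg. The remaining one, 1427701_a_at, stayed between 9.46 and 47.0 on all arrays and was not called. For *Pax9*, 1421247_at read 50.1, 78.0 and 34.4 in UGE, 24.5 to 46.4 in Sca-1Hi, 25.8 to 47.5 in Sca-1Lo, and 8.57, 12.3, 29.1 and 10.7 in Sca-1Neg. It was called higher in UGE (at least 2.33-fold, adjusted p = 0.00453) and in Sca-1Hi (at least 1.60-fold, adjusted p = 0.0491) than in Sca-1Neg, but its UGE arrays overlapped those of Sca-1Hi and Sca-1Lo. The probe set 1421246_at lay between 13.3 and 38.3 throughout, and was called in Sca-1Hi against Sca-1Neg only (at least 1.73-fold, adjusted p = 0.0453). The excess of *Pax9* in UGE over the adult Sca-1 positive gates thus passed the call on 1 probe set of 3. UGE signals had selected that probe set. The excess of *Six4* passed the call on 3 of 4.

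**Figure D3:**
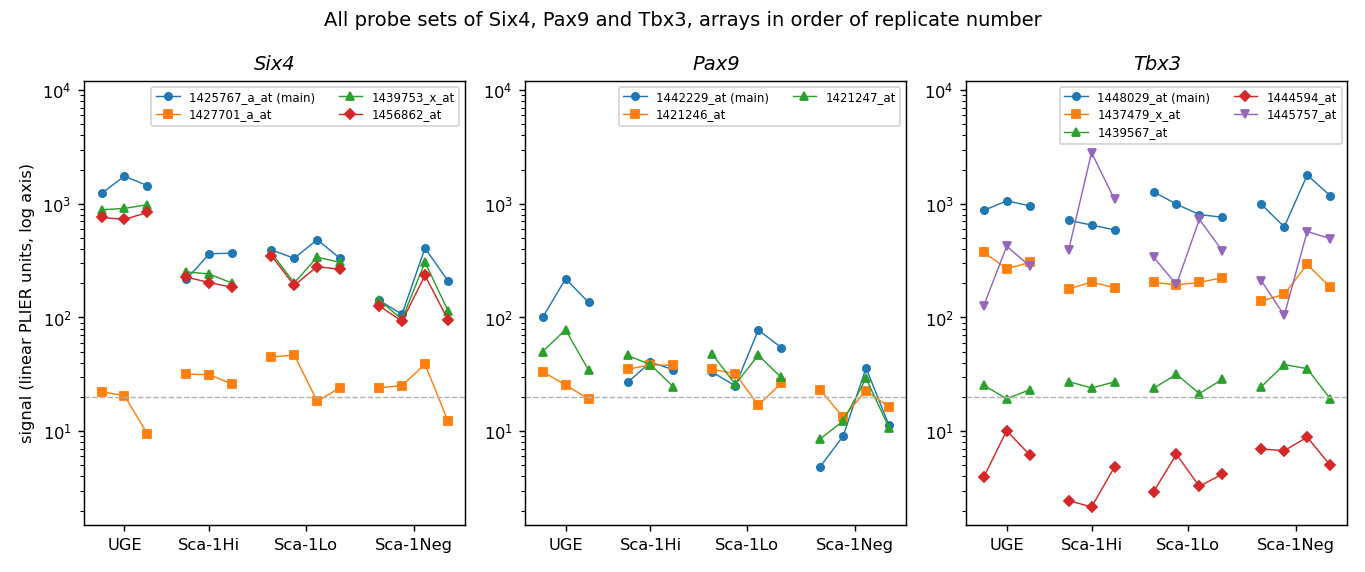
Every probe set of *Six4*, *Pax9* and *Tbx3* on the 14 arrays, on a log axis of linear PLIER units. Each line joins the arrays of 1 probe set and population in the order of replicate numbers, and the dashed line is a signal of 20. In *Six4* 3 probe sets fall together from UGE to the adult arrays, in *Pax9* all 3 have their lowest mean in Sca-1Neg, and in *Tbx3* the probe set 1445757_at has its own pattern with 2820 on Sca-1Hi replicate 2.

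The genes most like each called regulator over the 14 arrays were sought among 15599 other genes with a standard name. For *Six4* they were *Prps1l3*, a gene of phosphoribosyl pyrophosphate synthesis (Pearson r = 0.98), *Pafah1b3*, a subunit of a platelet-activating factor acetylhydrolase (0.97), and *Cacybp*, which encodes a calcyclin-binding protein (0.97). *Pafah1b3* had mean signals of 2396 in UGE, 556 in Sca-1Hi, 670 in Sca-1Lo and 383 in Sca-1Neg. For *Pax9* they were *Trim29* (0.97), a gene of the tripartite motif family, *Mboat2* (0.96), an acyltransferase of phospholipids, and *Sdk1* (0.96), a cell adhesion molecule. *Trim29* had means of 1585, 357, 411 and 79.7 in the same order. *Six4* and *Pax9* themselves had r = 0.93 over the 14 arrays and 0.89 over the 11 adult ones. The points of each correlation share their arrays and the contrast of populations, and the values are descriptions.

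*Six2* and *Eya1* had a different order of levels from *Six4*, with the highest means in Sca-1Neg and UGE and the lowest in the Sca-1 positive gates. *Six2* keeps nephron progenitors of the kidney from differentiating. Its probe set, 1427436_at, read 169, 135 and 122 in UGE, 32.6, 28.5 and 115 in Sca-1Hi, 68.7, 34.5, 35.6 and 87.4 in Sca-1Lo, and 187, 157, 50.2 and 330.3 in Sca-1Neg. The UGE arrays lay above all Sca-1Hi and Sca-1Lo arrays, but Sca-1Neg overlapped with both.

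No difference of *Six2* passed the call. It was -1.64 ± 0.60 in Sca-1Hi against Sca-1Neg (SE, limma adjusted p = 0.0915), -1.51 ± 0.56 in Sca-1Lo against Sca-1Neg (SE, adjusted p = 0.223), 1.57 ± 0.65 in UGE against Sca-1Hi (SE, adjusted p = 0.0905) and 1.43 ± 0.60 in UGE against Sca-1Lo (SE, adjusted p = 0.105). Single arrays decided whether they were called. Without Sca-1Neg replicate 3 all 4 were called (-2.17, -2.03, 1.57 and 1.43, with limma adjusted p from 0.0160 to 0.0486). Sca-1Neg replicate 3 is in neither group of the UGE comparisons, whose differences stayed at 1.57 and 1.43. Only the spread shared by all groups and the adjustment changed there. Without Sca-1Hi replicate 3 the differences that involve Sca-1Hi were called (-2.28 and 2.21). With adult arrays of study numbers 1 and 2 alone the difference in Sca-1Hi was -2.39 and called, on 1 Sca-1Hi array, and with numbers 3 to 5 it was -1.17 and not called.

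*Eya1*, the coactivator most tied to Six-family factors in kidney and ear, had the same pattern on a wider spread. Its main probe set, 1457424_at, read 372, 81.4 and 93.4 in UGE, 38.3, 39.0 and 116 in Sca-1Hi, 83.8, 53.3, 135 and 242 in Sca-1Lo, and 256, 203, 58.7 and 350.5 in Sca-1Neg. All 4 groups overlapped in part. Its difference in Sca-1Hi against Sca-1Neg was -1.70 ± 0.71 (SE, adjusted p = 0.133), called without Sca-1Neg replicate 3 (-2.24, adjusted p = 0.0382), and in UGE against Sca-1Neg it was -0.36 ± 0.71 (SE, adjusted p = 0.748), which array weights moved to a call (-1.21, adjusted p = 0.0355). UGE replicate 1 held the high UGE value. Of its other probe sets, 1443117_at read 10.4 to 64.5 and 1421727_at 12.0 to 29.0.

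The arrays high in *Six2* were largely those high in *Eya1*. Over the 14 arrays r was 0.81, and over the 11 adult arrays 0.87, as a description of arrays that share populations and cell makeup. Sca-1Neg replicate 3 was the lowest Sca-1Neg array for both genes, Sca-1Neg replicate 4 and Sca-1Hi replicate 3 the highest of their gates, and Sca-1Lo replicate 4 the highest Sca-1Lo array. Of the marker lists, nerve and glia had the highest correlation with either gene over the 14 arrays (r = 0.69 for *Six2* and 0.64 for *Eya1*), and UGE replicate 1 and Sca-1Neg replicate 4, which had the highest sums of that list (4797 and 12677), were also the highest arrays of their groups for both genes. On the other arrays that sum was 158 to 392. For mesenchyme r was 0.03 and 0.39, and for smooth muscle 0.14 and 0.28. Within each population, though, the array highest in both genes also had the highest mesenchymal sum. These were 21806 (UGE replicate 1), 61900 (Sca-1Hi replicate 3), 77036 (Sca-1Lo replicate 4) and 63358 (Sca-1Neg replicate 4). Sca-1Neg replicate 3, lowest of its gate in both genes, had 25649, above the 20474 of replicate 2. The nerve and glia sum of Sca-1Hi replicate 3, at 167, was the lowest of its gate. The part of these cells in the *Six2* and *Eya1* values was not tested.

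**Figure D4:**
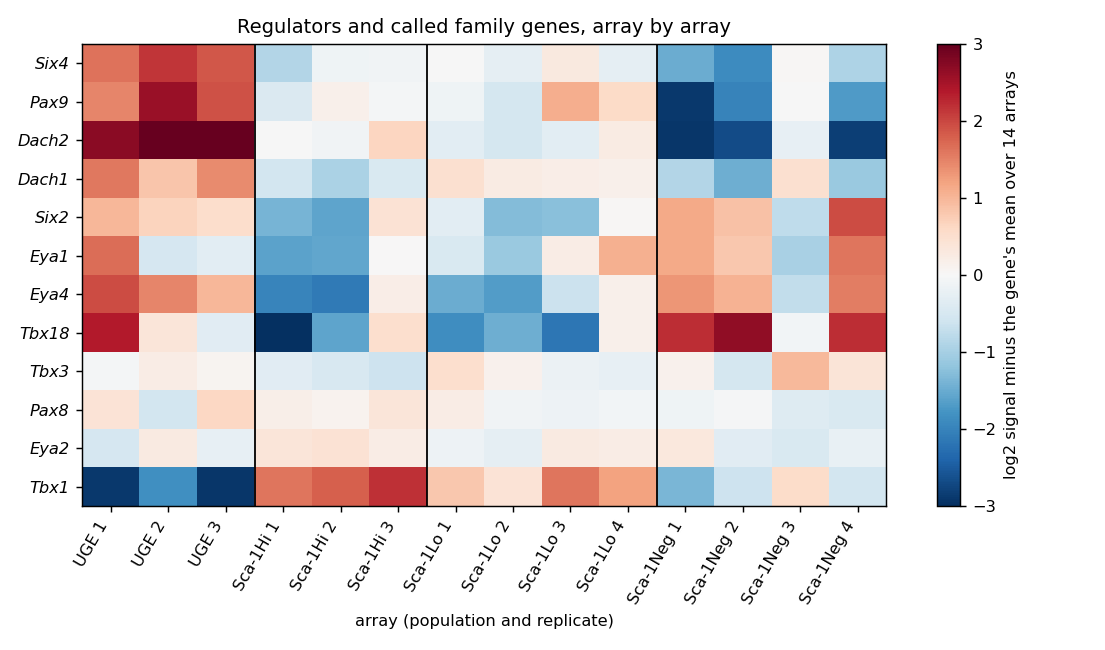
Log2 signal minus the gene's mean over the 14 arrays, for the 7 measured regulators and 5 called family genes, by array in the order of populations and replicate numbers. *Six4*, *Pax9* and *Dach2* are high (red) on the 3 UGE arrays, *Six2*, *Eya1* and *Eya4* are low (blue) on most Sca-1Hi and Sca-1Lo arrays, and Sca-1Neg replicate 3 departs from its gate in both sets.

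*Eya2*, *Pax8* and *Tbx3* were not called in any of the 6 comparisons. *Eya2*, a paralogue of *Eya1*, read 34.5 to 58.7 in UGE, 57.0 to 66.0 in Sca-1Hi, 40.5 to 58.8 in Sca-1Lo and 35.5 to 60.8 in Sca-1Neg. In UGE against Sca-1Neg its difference was 0.02, with a 95% interval from -0.55 to 0.59. *Pax8*, which acts with Pax2 in the Wolffian duct, read 127, 64.6 and 147 in UGE. It read 102.4 to 123 in Sca-1Hi, 84.9 to 110.2 in Sca-1Lo and 69.8 to 92.9 in Sca-1Neg. UGE replicate 2 was the low UGE array, as for *Wnt9b* and *Wt1* below, whereas *Gfra1* and *Wnt4* were highest on it. With single arrays left out, the *Pax8* difference of UGE from Sca-1Neg ran from 0.18 to 0.77. The lowest limma adjusted p was then 0.0474, but the fold limit of a call was never reached. All 3 Sca-1Hi arrays lay above all Sca-1Neg arrays, by 0.47 (95% interval -0.12 to 1.07, adjusted p = 0.281). Its other probe set, 1446561_at, read 3.88 to 38.4.

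*Tbx3* encodes a T-box repressor needed for limbs and mammary gland. Its main probe set, 1448029_at, read 874, 1061 and 959 in UGE, 716, 650.3 and 589 in Sca-1Hi, 1277, 991, 803 and 761 in Sca-1Lo, and 990.3, 626, 1787 and 1179.6 in Sca-1Neg. The Sca-1Hi arrays lay below all UGE and all Sca-1Lo arrays. The difference of Sca-1Hi from Sca-1Neg was -0.72 ± 0.32 (SE, limma adjusted p = 0.153), that of UGE from Sca-1Hi was 0.57 (adjusted p = 0.240), and neither passed the call. The Sca-1Hi difference was called without Sca-1Neg replicate 2 (-0.98, adjusted p = 0.0434) and with adult arrays of study numbers 3 to 5 alone (-1.23), but was -0.14 with numbers 1 and 2.

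The probe sets of *Tbx3* disagreed. While 1448029_at was lowest in Sca-1Hi, 1445757_at was highest there, at 392, 2820 and 1091 against 104 to 729 on the Sca-1Lo and Sca-1Neg arrays and 127 to 423 in UGE, and was not called. Another probe set, 1437479_x_at, read 268 to 374 in UGE and 139 to 293.5 on the adult arrays. The probe set 1439567_at lay between 19.3 and 38.6, and 1444594_at did not pass a signal of 20 on any array.

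The orders of the mean signals were UGE, Sca-1Lo, Sca-1Hi, Sca-1Neg for *Six4* and *Pax9*. In both genes the step from UGE to Sca-1Lo passed the call, and the later steps did not. For *Six2* the order was Sca-1Neg, UGE, Sca-1Hi, Sca-1Lo, for *Eya1* Sca-1Neg, UGE, Sca-1Lo, Sca-1Hi, and for *Tbx3* the same as for *Eya1*. No step between neighbours passed the call in these 3 genes, nor in *Eya2* and *Pax8*. These orders are of linear means. On the log2 scale *Six2* was lower in Sca-1Hi than in Sca-1Lo (-0.13, not called).

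The wider families were then counted from lists of all Six-family, Eya, Dach, Pax and T-box genes. Of 38 genes listed, 31 were tested. In UGE against Sca-1Neg 6 were called higher and 3 lower (29.0%, with a median difference of -0.04 against 0.07 over all genes), in Sca-1Hi 3 higher and 2 lower (16.1%), and in Sca-1Lo none, with 12 at an unadjusted p under 0.05 by limma. Read against the backgrounds of 29.2%, 11.3% and 2.51%, the share in UGE was close to that of all genes. The 12 have no such background, as no share of all genes at an unadjusted p was taken. All counts here include the 7 regulators above.

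Several of the genes that follow were higher in Sca-1Hi, and endothelial and basal epithelial markers moved with that contrast. All 7 basal genes listed were called higher in Sca-1Hi than in Sca-1Neg, and 4 of them in Sca-1Lo. The basal sum was 21998 to 28941 in UGE, 18509.9 to 29117 in Sca-1Hi, 9086 to 28812 in Sca-1Lo and 1803 to 8215 in Sca-1Neg. All 8 endothelial genes listed were called higher in Sca-1Hi and in Sca-1Lo than in Sca-1Neg, and their sum was 9529 to 16307 in Sca-1Hi, 4093 to 10019.6 in Sca-1Lo, 527 to 1233 in Sca-1Neg and 147 to 595 in UGE. Other genes that follow were lower in UGE or Sca-1Hi than in Sca-1Neg, and smooth muscle markers were too. Their sum (7 genes) was 25838 to 82900 in Sca-1Neg, 10490 to 22736 in Sca-1Lo, 8096 to 24469 in Sca-1Hi and 1017 to 2967 in UGE. Mesenchymal sums overlapped between all populations. The part of endothelial and basal epithelial cells in the values of *Dach2*, *Tbx1*, *Ret* and *Wnt4* was not tested. Nor was that of smooth muscle and mesenchyme in *Tbx4*, *Tbx18*, *Itga8* and *Foxc2*.

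The largest rise among the family genes was that of *Dach2*, a corepressor partner of Six-family and Eya proteins. It read 1713, 2623 and 2127 in UGE, 264, 244 and 411 in Sca-1Hi, 212, 184, 211 and 313 in Sca-1Lo, and 35.0, 41.4, 224 and 37.3 in Sca-1Neg. Its difference was 5.17 ± 0.53 in UGE against Sca-1Neg (SE, limma adjusted p = 1.25e-05), 2.34 ± 0.53 in Sca-1Hi against Sca-1Neg (SE, adjusted p = 0.0128), and 2.83 and 3.23 in UGE against Sca-1Hi and Sca-1Lo. Every UGE array lay above every adult array, and Sca-1Neg replicate 3 was again the high array of its gate. The call in Sca-1Hi was lost without Sca-1Hi replicate 3. *Dach1*, its paralogue, read 628 to 1064 in UGE, 182 to 259 in Sca-1Hi, 395 to 494 in Sca-1Lo and 129 to 495.5 in Sca-1Neg. It was called higher in UGE than in Sca-1Neg (2.03, adjusted p = 0.00164) and than in Sca-1Hi (1.94, adjusted p = 0.00355).

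The Eya family split. *Eya3* was called higher in UGE than in Sca-1Neg (1.14, adjusted p = 0.0215), Sca-1Hi (1.25) and Sca-1Lo (1.17), at signals of 484 to 738 against 166 to 433 on all adult arrays, and each call was lost without UGE replicate 2, UGE replicate 3 or at least 1 adult array. *Eya4* read 572, 408 and 291 in UGE and 37.5, 33.8 and 169 in Sca-1Hi. It read 52.0, 45.7, 93.7 and 162 in Sca-1Lo, and 366.5, 302.5, 87.8 and 426 in Sca-1Neg. In each population its highest array was also that of *Six2* and *Eya1*. Its lowest array was that of *Six2*, and in Sca-1Lo and Sca-1Neg that of *Eya1* too. *Eya4* was called higher in UGE than in Sca-1Hi (2.77, limma adjusted p = 0.00996) and Sca-1Lo (2.40, adjusted p = 0.0170). The first call was lost without Sca-1Hi replicate 2, and the second without UGE replicate 1 or 2. The forebrain gene *Six3* was called lower in UGE than in Sca-1Neg (at least 1.93-fold lower, adjusted p = 0.00362), at 16.1 to 18.3 against 26.5 to 53.1, and *Pax3*, a neural crest gene, was called higher in Sca-1Hi than in Sca-1Neg (0.96, adjusted p = 0.0354), at 93.4 to 148 against 49.2 to 71.2. The *Pax3* call was lost without any 1 of 5 arrays.

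Among T-box genes *Tbx1*, a gene of the pharyngeal arches, went against *Six4*. It read 16.7, 34.6 and 16.3 in UGE, 377.5, 431 and 564 in Sca-1Hi, 217, 163, 376 and 286 in Sca-1Lo, and 48.1, 79.8, 180 and 84.6 in Sca-1Neg. Its difference was -2.05 ± 0.43 in UGE (SE, limma adjusted p = 0.00318) and 2.37 ± 0.43 in Sca-1Hi (SE, adjusted p = 0.00398) against Sca-1Neg, and -4.42 and -3.56 in UGE against Sca-1Hi and Sca-1Lo. The UGE arrays lay below every adult array. *Mga*, which encodes a T-box protein that dimerizes with Max, was called higher in UGE than in Sca-1Neg (1.33, adjusted p = 0.0135), Sca-1Hi (1.27) and Sca-1Lo (1.19). The mesoderm gene *Tbx6* was called lower in UGE than in Sca-1Hi (-1.09, adjusted p = 0.0195) and Sca-1Lo (-0.87, adjusted p = 0.0469). The hindlimb gene *Tbx4* was at least 2.10-fold lower in UGE (adjusted p = 0.0113) and at least 2.04-fold lower in Sca-1Hi (adjusted p = 0.0422) than in Sca-1Neg. *Tbx18*, a gene of ureter mesenchyme, was at least 1.97-fold lower in Sca-1Hi than in Sca-1Neg (adjusted p = 0.0375), where Sca-1Neg replicate 3, at 9.11, lay below the 13.6 of Sca-1Hi replicate 3. Leaving out single arrays ended the *Mga* calls (UGE replicate 2 or 3 in each), both *Tbx6* calls, the *Tbx4* call in Sca-1Hi and the *Tbx18* call. Under the methods' t-test both *Tbx1* calls against Sca-1Neg were lost (adjusted p = 0.0768 in UGE and 0.0957 in Sca-1Hi). Other calls against Sca-1Neg lost in UGE were those of *Dach1* (0.0756), *Six3* (0.0502), *Eya3* (0.165) and *Tbx4* (0.0646). In Sca-1Hi they were those of *Dach2* (0.186), *Pax3* (0.122), *Tbx4* (0.171) and *Tbx18* (0.205). *Eya4* (0.0854) and *Tbx6* (0.0758) in UGE against Sca-1Hi and *Mga* (0.129) in UGE against Sca-1Lo were lost too.

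**Figure D5:**
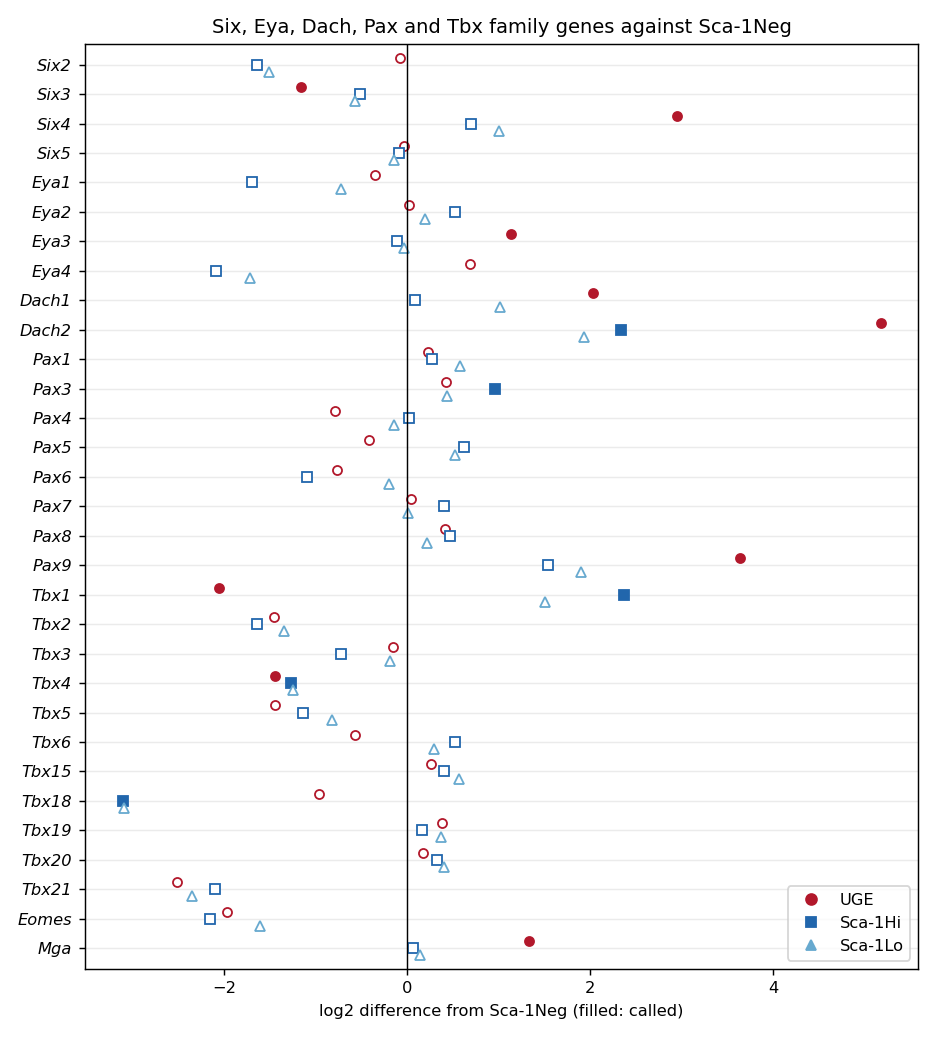
Difference of mean log2 signal from Sca-1Neg of each of the 31 tested Six-family, Eya, Dach, Pax and Tbx genes, by the probe set of highest mean signal, in UGE (circles), Sca-1Hi (squares) and Sca-1Lo (triangles). Filled marks passed the call, no triangle is filled, and the farthest marks are *Dach2* in UGE (5.17) and *Tbx18* in Sca-1Hi (-3.11, fitted on signals mostly below 20).

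Regulators and ligands of kidney and Wolffian duct that work around these factors were taken as a further list of 26 genes, of which 22 were tested. In UGE against Sca-1Neg 7 were called higher and 1 lower (36.4%, beside 29.2% of all genes, with a median of 0.39), in Sca-1Hi 2 higher and 2 lower (18.2%, beside 11.3%), and in Sca-1Lo 1 higher (4.55%, beside 2.51%). Against Sca-1Hi, UGE had 8 higher and 2 lower (45.5%, beside 27.8% of all genes), and against Sca-1Lo 6 higher and 1 lower (31.8%, beside 25.6%). The 8 include *Gdnf*, whose signals were below 20 on every array of both groups. *Gdnf* is also among the 2 lower in Sca-1Hi against Sca-1Neg, where only Sca-1Neg replicate 4 passed 20.

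The receptor side of the Gdnf signal was higher in UGE. *Ret*, the receptor tyrosine kinase, read 815, 589 and 469.5 in UGE, 243, 130.2 and 145 in Sca-1Hi, 78.9, 59.6, 119.9 and 117 in Sca-1Lo, and 28.9, 35.9, 24.2 and 5.55 in Sca-1Neg. The 4 populations did not overlap, and *Ret* was called higher than Sca-1Neg in UGE (4.98 ± 0.53 SE, limma adjusted p = 1.97e-05), Sca-1Hi (3.10 ± 0.53 SE, adjusted p = 0.00297) and Sca-1Lo (2.22 ± 0.49 SE, adjusted p = 0.0366). The last call was lost in a fit of the Sca-1Lo and Sca-1Neg arrays paired by replicate number (2.22, adjusted p = 0.137), and without any 1 of 8 arrays. *Gfra1*, the co-receptor of *Ret*, read 1404, 2601 and 1424 in UGE and 43.0 to 404 on the adult arrays, which was 3.68 ± 0.72 above Sca-1Neg on the log2 scale (SE, adjusted p = 0.00205). The ligand *Gdnf* was at 7.65 to 15.4 in UGE, 1.35 to 2.57 in Sca-1Hi, and 16.4, 18.8, 16.7 and 71.5 in Sca-1Neg. It was called lower in Sca-1Hi than in Sca-1Neg (limma adjusted p = 0.00296), on signals below 20 except on Sca-1Neg replicate 4. The bound of at least 1.38-fold rests on that array alone. The call was lost with 16 added before log2 and with the methods' t-test.

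*Wnt4*, a secreted inducer of nephron epithelium, was called higher than Sca-1Neg in UGE (2.77, adjusted p = 0.00108) and Sca-1Hi (2.46, adjusted p = 0.00694), at 2021 to 5142 and 1822 to 3833 against 249.6 to 1042. *Wnt9b*, which the Wolffian duct secretes, read 343, 49.3 and 643 in UGE and 41.6 to 76.1 on the adult arrays, and was called higher than Sca-1Neg (2.21, adjusted p = 0.0163) on 2 UGE arrays of 3, a call that was lost without either of them. *Wt1*, a zinc finger gene of kidney and gonad, read 383, 43.4 and 311 in UGE with the same array low. It was at least 8.64-fold higher than in Sca-1Neg (limma adjusted p = 0.00121). At 8.46 to 46.5 in Sca-1Hi and 8.82 to 96.4 in Sca-1Lo, both gates overlapped UGE. The *Wt1* call in UGE against Sca-1Hi (3.18) was lost without any 1 of 5 arrays and under the methods' t-test (adjusted p = 0.147). *Itga8*, the integrin of kidney mesenchyme, read 81.2 to 198 in Sca-1Hi and 970.0 to 6360 in Sca-1Neg and was called lower in Sca-1Hi (-4.06 ± 0.53 SE, adjusted p = 6.03e-04). *Foxc2*, a forkhead gene of mesenchyme, was called lower in UGE than in Sca-1Neg (-2.95, adjusted p = 0.00633), at 13.7 to 98.7 against 123.5 to 677. Under the methods' t-test the calls of *Ret* (adjusted p = 0.122), *Wnt4* (0.113) and *Itga8* (0.0891) in Sca-1Hi against Sca-1Neg were lost. So were those of *Foxc2* (0.106) and *Wnt9b* (0.189) in UGE and of *Ret* (0.374) in Sca-1Lo against Sca-1Neg.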

How the data were processed

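RNA of 14 samples was hybridised by the study to 1-colour Affymetrix MOE430 2.0 arrays. Per the methods, the authors made the deposited signal intensity values with PLIER in ArrayAssist, and the submitters' processing notes also name MAS5. The step between arrays is not given in the sources used here, and the number of arrays limits the precision. Controls and probe sets never above 20 were dropped, and log2 signals of 41031 probe sets were fitted in limma 3.58.1 (R 4.3.3) with 1 mean per group over all 14 arrays. P-values were adjusted by Benjamini-Hochberg. Genes were called at an adjusted p below 0.05 if their log2 difference was larger than 0.81 in size, which is the fold limit of the methods. The fit was tested on simulated data. Where every array of a group or its mean was at or below 20, signals there were set to at least 20 and the fold was given as a bound. The platform's table gave several symbols to 932 probe sets and none to 9160, which named no gene. Groups and replicate numbers came from the sample titles. Study numbers were joined to arrays through 1045 probe sets of equal value (largest difference 1.2e-05).

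Members and lists were chosen with earlier results of these data known. The rule named all members, every Six-family, Eya, Dach, Pax or Tbx gene called at least once, the 8 kidney and Wolffian duct genes with the largest called difference from Sca-1Neg, and the 3 genes most correlated with each called member. Alternatives were other filters, 16 added before log2, quantile and 75th percentile scaling, the methods' t-test, 2-group fits, a replicate block, no minimum fold, an intensity trend, array weights, study numbers, other probe sets and leaving out each array. Pairing by replicate number was checked on deviations from group means: every pair exceeded a correlation of 0.1 for Sca-1Lo with Sca-1Neg only (0.12 to 0.56 over 4 pairs), and a fit of those arrays with the block was added after seeing the data, as were the adult comparisons within study numbers.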

Additional observations from a re-analysis of the deposited data

Results flagged for a closer look

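Of 52 groups of 4 arrays examined among the named genes, 3 had 1 array far from the others by Dixon's criterion (the gap to the nearest array over the whole range, at the 95% level), and chance gives about 1 in 20. *Dach2* read 224 on Sca-1Neg replicate 3 and 35.0 to 41.4 on the other Sca-1Neg arrays. *Tbx18* read 9.11 on the same array and 44.4 to 60.7 on the others. *Gdnf* read 71.5 on Sca-1Neg replicate 4 and 16.4 to 18.8 on the others. On Sca-1Neg replicate 3 the epithelial sum was 35403, against 8701 to 14290 on the other Sca-1Neg arrays, and on Sca-1Neg replicate 4 the nerve and glia sum was 12677, against 158 to 392. The part of these cells in the values was not tested.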

How the results depend on the processing

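For UGE against Sca-1Neg, 2 members were called whichever array was left out, and 2 to 3 under the other alternatives, the additional one being *Eya1* with array weights (-1.21, adjusted p = 0.0355). Over all probe sets the methods' t-test called 4718 in place of 10595 in UGE against Sca-1Neg, 308 in place of 4893 in Sca-1Hi and 2 in place of 781 in Sca-1Lo. Leaving out single arrays gave 0 to 4 called in Sca-1Hi against Sca-1Neg, 0 to 3 in Sca-1Lo against Sca-1Neg, and 1 to 3 in UGE against Sca-1Hi and in UGE against Sca-1Lo, and each of these highest counts was reached without Sca-1Neg replicate 3. In Sca-1Hi against Sca-1Neg the count of 0 became 1 with quantile normalization (*Six2*), 3 with array weights (*Eya1*, *Pax9*, *Six4*), 1 with low and high study numbers as a block (*Pax9*), 1 with low numbers alone (*Six2*), 1 with high numbers alone (*Tbx3*) and 1 with the mean of a gene's probe sets (*Pax9*). In Sca-1Lo against Sca-1Neg it became 1 with 75th percentile centring, 1 with study numbers as a block and 1 with the mean of probe sets (*Pax9* each time), and 3 with array weights and 3 with low numbers alone (*Pax9*, *Six2*, *Six4*). The 2 calls in UGE against Sca-1Hi became 1 with the mean of probe sets, and those in UGE against Sca-1Lo became 1 with the methods' t-test, 1 with high numbers alone and 1 with the mean of probe sets (*Six4* each time). *Six2* was called as well in UGE against Sca-1Hi with low numbers alone (2.11, adjusted p = 0.0149), and in UGE against Sca-1Lo with low numbers alone (adjusted p = 0.0124) and with 2-group fits (adjusted p = 0.0287). The count for Sca-1Hi against Sca-1Lo was 0 in each alternative. Signs turned with other probe sets: 1427701_a_at of *Six4* gave -0.51, -0.86 and -0.93 for UGE against Sca-1Neg, Sca-1Hi and Sca-1Lo, and 1421246_at of *Pax9* gave -0.55 and -0.068 for UGE against Sca-1Hi and Sca-1Lo. Of 1270 member values over 42 differences, 1211 kept direction or an uncalled state, 36 gained a call, 18 lost one and 5 were those reversals. Of 1355 values of the other named genes, 202 lost the call and 0 reversed. These values cover called differences only. Single other probe sets, which gave the 5 reversals, were tried for members alone, so the 2 counts of reversals are not comparable.

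Only for Sca-1Lo with Sca-1Neg did every pair of equal replicate number exceed a correlation of deviations of 0.1. Some pairs of unequal number exceeded it too, at 0.45 for Sca-1Lo replicate 3 with Sca-1Neg replicate 4. Sca-1Hi replicate 1 with Sca-1Lo replicate 2 had 0.70. Others were negative, at -0.57 for Sca-1Lo replicate 2 with Sca-1Neg replicate 4. Replicate numbers of the labels differ from the study's own numbers on Sca-1Hi replicates 2 and 3 and on replicates 3 and 4 of Sca-1Lo and Sca-1Neg, so that the block sets some arrays of different study numbers together. Sca-1Hi replicate 2 and Sca-1Lo replicate 2, for one, had a correlation of deviations of -0.45, whereas the Sca-1Hi and Sca-1Lo arrays that share a study number had 0.51 and 0.28. With the replicate block over all arrays, *Six2* in UGE against Sca-1Lo was called (1.751, adjusted p = 0.0444), and *Tbx18* (-2.78, adjusted p = 0.0781) and *Tbx4* (-1.31, adjusted p = 0.0616) in Sca-1Hi against Sca-1Neg and *Wnt9b* (1.88, adjusted p = 0.0541) in UGE against Sca-1Hi lost the call. With the Sca-1Lo and Sca-1Neg arrays alone and the block, no member was called (*Pax9* adjusted p = 0.0521, *Six2* 0.0851) and *Ret* was lost. The replicate block changed no other call of a named gene. The cause of these changes was not tested.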
